A study of Rattus norvegicus with 20 samples.

Results

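The genes that encode insulin and islet amyloid polypeptide (IAPP), and the genes that turn their precursors into hormone, were followed in INS-1, an insulin-secreting rat insulinoma line used as a model of beta cells. Of 9 genes chosen by name (Ins1, Ins2, Iapp, Pcsk1, Pcsk2, Pcsk1n, Cpe, Pam and Scg5), 7 had a probe set that carried their symbol alone in the array's annotation, out of 18166 genes measured in all. Pcsk1 and Cpe had none and are not analysed here. Each gene was read from its brightest such probe set.

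Both rat insulin genes are transcribed into preproinsulin mRNA. Proinsulin and pro-IAPP are cut in the secretory granule by the proprotein convertases encoded by Pcsk1 and Pcsk2, after which carboxypeptidase E, the product of Cpe, trims the basic residues left at the cut. IAPP is then amidated by the enzyme that Pam encodes, while Scg5 encodes the chaperone 7B2, which convertase 2 needs to mature, and Pcsk1n encodes proSAAS, an inhibitor of convertase 1.

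The study added IAPP, the peptide that forms amyloid in islets, to the medium, alone or with C4b-binding protein (C4BP), a complement inhibitor of plasma. The arrays read mRNA, so Iapp below is the transcript of the cells themselves and not the added peptide. There were 20 Affymetrix Rat Gene 2.0 arrays, 5 for each of the title words DMSO, IAPP, C4BPD and C4BP. All wells held the same parental line, and none is described as genetically altered. Wells of the DMSO group received 1% DMSO, the solvent of IAPP. Wells titled IAPP received monomeric IAPP, given as 77 uM in the series text and as 300 ug/ml in the sample fields. C4BP was used at 0.6 uM, or 300 ug/ml in the sample fields. The titles C4BPD and C4BP are not spelled out. From the 4 conditions and the order of the samples, C4BP is likely C4BP together with IAPP and C4BPD likely C4BP alone. Cells had been kept as 5 separate clones for 10 passages, and RNA was taken after 10 h of treatment. Each title word occurs with the numbers 1 to 5, but no label says that a number is a clone, so p-values measure the spread between these arrays.

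A separate treatment field matches this reading of the titles in only 3 of the 20 arrays, and every group below rests on the title. Down the sample list the field repeats IAPP, IAPP + C4BP, C4BP and DMSO in that fixed order, whereas the titles are in mixed order. The running prefixes of the titles follow the same cycle of conditions on the likely reading. Why field and titles differ was not tested. The median intensity of an array was between 170.01 and 182.36, and correlations between arrays on the log2 scale ran from 0.985 to 0.996. All 4 arrays numbered 1 had lower medians (170.01 to 174.00) than the other 16 (174.67 to 182.36). Of the beta-cell markers, 7 were measured and all lay above 7.48, which is the median log2 intensity over all probe sets other than controls. Of these 7, which include Ins1, Ins2 and Iapp, 2 fell in IAPP, none passed in C4BPD and 3 fell in C4BP against DMSO, where 1.97% and 3.23% of all genes were lower in IAPP and C4BP. Slc2a2, the glucose transporter of beta cells, was at 9893 ± 181 in C4BP and 10904 ± 127 in DMSO (SD, n = 5; log2 difference -0.14, adjusted p = 0.0048 by limma), a call lost in a fit of both groups alone (0.0552). Mafa, an activator of insulin transcription, was at 1025 ± 63.0 in IAPP and 1230 ± 97.0 in DMSO (-0.26, adjusted p = 0.0372). The Mafa call was lost without any of DMSO 1, 3 or 5 or IAPP 2, 4 or 5, in 4 of 5 fits without a number (adjusted p up to 0.173) and with all probe sets tested (0.0832). The alpha-cell hormone gene Gcg was also bright, with a mean intensity of 9956, and was at 9400 ± 167 in IAPP against 10303 ± 285 in DMSO (SD, n = 5; log2 difference -0.13, adjusted p = 0.0195 by limma). That call was lost without DMSO array 2 or IAPP array 4, in 4 of the 5 fits that left out a number (adjusted p up to 0.162) and in a fit of both groups alone (0.0871). The other measured alpha-cell markers, Irx2 (7.46) and Ttr (7.44), lay just below the median of 7.48. Sst of delta cells (7.76) lay near that median. Hhex, also of delta cells (6.78), and the hormone genes Ppy (6.80) and Ghrl (6.86) lay below it. Among acinar, duct, fibroblast, macrophage and endothelial markers, 4 of 23 lay above it. The part of other cells in the values of the hormone genes was not tested, and fewer cells of a type cannot be told apart from less RNA per cell in these arrays.

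The upstream DNA of the hormone genes is shown because the 2 insulin genes are near copies there, whereas the rat Iapp promoter is a separate sequence with some of the same short motifs. The 250 bases before each start are given 5′ to 3′ on the gene's strand, from RefSeq sequences of build GRCr8, which held all 7 measured genes. They lie at chr1:261185869-261186118 on the plus strand for Ins1, at chr1:207273806-207274055 on the minus strand for Ins2, and at chr4:176967847-176968096 on the plus strand for Iapp. Capitals mark every match, on either strand, of TAAT (the core of the A boxes bound by homeodomain factors), CATCTG (an E box), TGACG (part of a cyclic AMP response element), CCAAT (the CCAAT box) and TATAAA (the TATA box), and TAAT matches that overlap run together.
Ins1: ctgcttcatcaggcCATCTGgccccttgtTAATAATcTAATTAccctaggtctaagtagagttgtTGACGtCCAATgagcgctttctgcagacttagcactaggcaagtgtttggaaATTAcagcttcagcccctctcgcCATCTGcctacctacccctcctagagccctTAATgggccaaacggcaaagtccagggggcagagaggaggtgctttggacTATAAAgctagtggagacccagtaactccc
Ins2: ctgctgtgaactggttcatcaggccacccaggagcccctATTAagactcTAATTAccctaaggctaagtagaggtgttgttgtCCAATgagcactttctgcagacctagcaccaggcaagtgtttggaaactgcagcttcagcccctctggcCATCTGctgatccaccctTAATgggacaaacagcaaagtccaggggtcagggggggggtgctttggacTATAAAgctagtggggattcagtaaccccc
Iapp: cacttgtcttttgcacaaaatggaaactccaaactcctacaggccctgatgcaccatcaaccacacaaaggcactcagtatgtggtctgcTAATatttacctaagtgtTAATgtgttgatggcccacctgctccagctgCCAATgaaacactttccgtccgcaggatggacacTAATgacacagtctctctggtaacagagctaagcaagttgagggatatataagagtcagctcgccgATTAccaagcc

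Over 238 aligned base pairs, 86.1% were identical between the Ins1 and Ins2 windows. TAAT occurred 6 times in Ins1, 4 times in Ins2 and 4 times in Iapp, and 56.3% of the 27457 promoter windows of the same length held it at least once. CATCTG occurred 2 times in Ins1, 1 time in Ins2 and not in the Iapp window (13.7% of all windows). TGACG had 1 match in Ins1 alone among these 3 genes (19.0% of all windows). CCAAT was present 1 time in each of the 3 windows (34.3% of all). TATAAA was present 1 time in each insulin gene (13.1% of all), and the Iapp window had no match to it. Other forms of the TATA box were not searched, and the Iapp window holds tatataag near its end. These matches describe the letters in the windows and not bound sites.

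None of the 7 genes passed the test in any comparison between title groups. Between IAPP and DMSO, 0 of 7 passed, against 3.38% of all genes (1.41% higher, 1.97% lower in IAPP). Between C4BPD and DMSO it was 0 of 7 against 1.93% (1.17% higher, 0.765% lower), and between C4BP and DMSO 0 of 7 against 5.96% (2.72% higher, 3.23% lower). With C4BP compared with IAPP, 0 of 7 passed against 0.606% (0.374% higher, 0.231% lower). With C4BP compared with C4BPD it was 0 of 7 against 2.37% (0.754% higher, 1.62% lower). With C4BPD compared with IAPP it was 0 of 7 against 5.46% (3.64% higher, 1.82% lower). The F test across all 4 groups called 0 of 7 against 7.85% of all genes. At these shares a count of 0 among 7 genes is close to the background.

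The counts rest on limma's moderated test of log2 intensities with Benjamini-Hochberg adjustment over all 18166 genes, two-sided, called at an adjusted p under 0.05. Of the 42 differences between groups (7 genes in 6 comparisons), 2 had an unadjusted p under 0.05, both in Pcsk2, and the smallest adjusted p was 0.125. The 95% intervals ran from -0.34 to 0.31 on the log2 scale, that is from 0.788-fold to 1.24-fold. Each interval covers a single difference and is not adjusted for the number of differences. Of these intervals, 40 of 42 included 0.

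**Figure D1:**
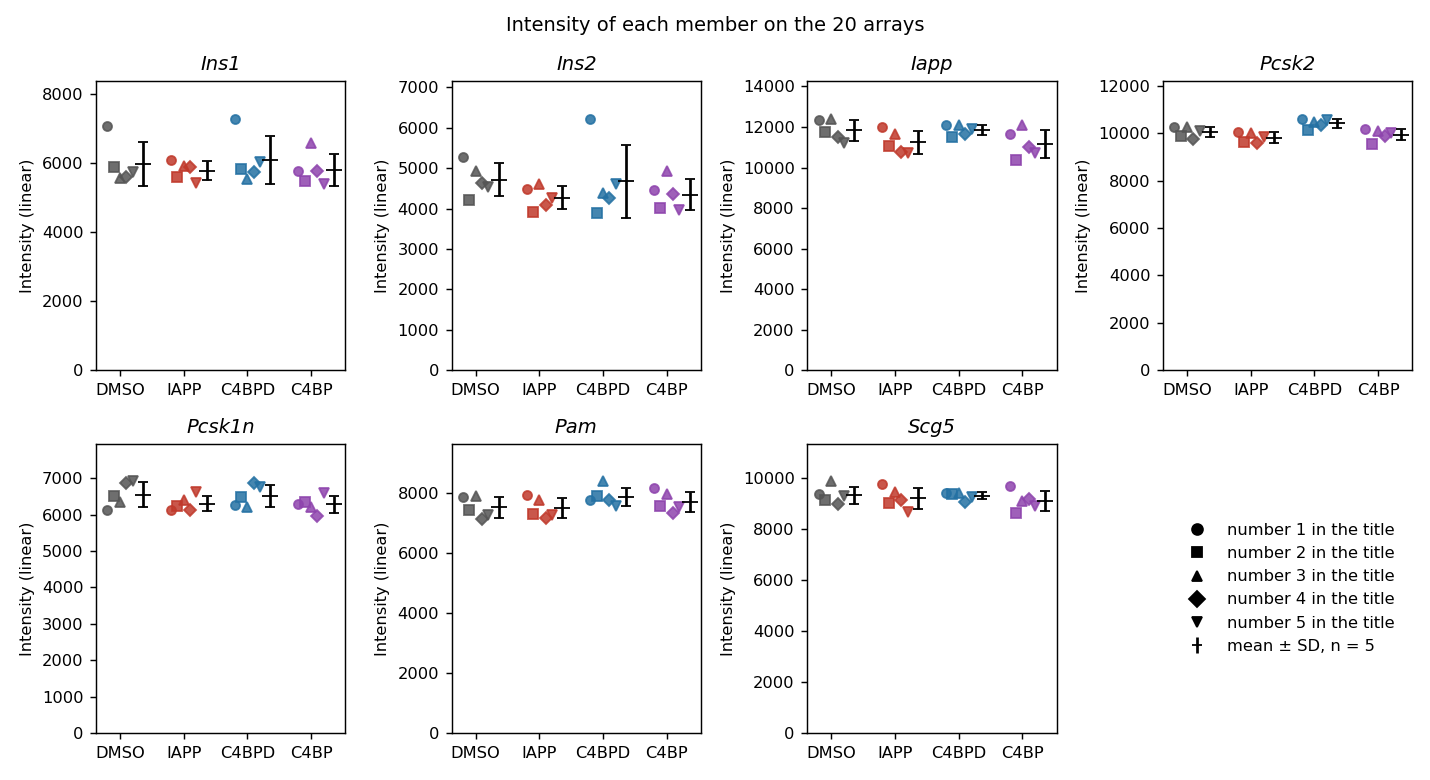
Linear intensity (vertical axes, from 0) of the 7 genes on the 20 arrays, by title group, with a symbol for each number in the title and bars for the mean ± SD of 5 arrays. Group ranges overlapped for every gene except Pcsk2 in C4BPD (10132 to 10611) against IAPP (9571 to 10040), and the high Ins1 arrays are number 1 of DMSO (7092) and of C4BPD (7290).

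Ins1, the retroposed copy of the insulin gene that mice and rats carry, had nearly the same level in all 4 groups. On arrays 1 to 5 its intensities were 7092, 5878, 5577, 5604 and 5737 in DMSO and 6103, 5599, 5910, 5886 and 5416 in IAPP. For C4BPD the values were 7290, 5836, 5534, 5738 and 6041, and the C4BP arrays 5789, 5487, 6598, 5773 and 5411. Number 1 of DMSO and number 1 of C4BPD stood above every other array, and the ranges of all 4 groups overlapped. The group means were 6088 ± 697 in C4BPD, 5978 ± 634 in DMSO, 5812 ± 470 in C4BP and 5783 ± 273 in IAPP (SD, n = 5 each), in that order, and no neighbours in it differed beyond their spread. Against DMSO the log2 difference was -0.04 for IAPP (95% interval -0.20 to 0.11), 0.03 for C4BPD (-0.13 to 0.18) and -0.04 for C4BP (-0.20 to 0.12).

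Ins2, the ancestral insulin gene, had the widest spread of the 7 genes in C4BPD. Its intensities were 5286, 4204, 4933, 4634 and 4539 in DMSO and 4484, 3912, 4604, 4079 and 4263 in IAPP. The C4BPD arrays read 6226, 3880, 4388, 4257 and 4615, and the C4BP arrays 4455, 4012, 4922, 4368 and 3967. C4BPD held both the highest and the lowest of the 20 values, so every other group lay inside its range. The means were 4719 ± 410 in DMSO, 4673 ± 908 in C4BPD, 4345 ± 387 in C4BP and 4268 ± 284 in IAPP (SD, n = 5 each), with no neighbours apart beyond their spread. IAPP relative to DMSO was at -9.44% in geometric mean, with a 95% interval from -21.2% to 4.09% (log2 difference -0.14 ± 0.10 SE, adjusted p = 0.658 by limma). C4BP against DMSO was at -0.12 (interval -0.32 to 0.08), and C4BPD against DMSO at -0.03 (-0.23 to 0.17). The 2 insulin transcripts are close in sequence, and how far each probe set also reads the other mRNA was not tested.

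Iapp, the gene of the amyloid-forming peptide, had lower means in both groups that likely received IAPP, without passing the test. Its intensities were 12337, 11749, 12407, 11508 and 11203 in DMSO and 12001, 11077, 11653, 10775 and 10695 in IAPP. In C4BPD the readings were 12106, 11526, 12104, 11647 and 11890, and the C4BP arrays 11633, 10360, 12087, 10991 and 10734. The ranges overlapped between all groups, and C4BPD was the narrowest. The means were 11854 ± 263 in C4BPD, 11841 ± 523 in DMSO, 11240 ± 568 in IAPP and 11161 ± 695 in C4BP (SD, n = 5 each). DMSO and IAPP, the neighbours furthest apart in this order, differed by -0.08 on the log2 scale (± 0.05 SE, 95% interval -0.17 to 0.02, adjusted p = 0.594 by limma). The interval for C4BP against DMSO was -0.18 to 0.01 around -0.09, with an adjusted p of 0.386 in the same limma fit. C4BPD against DMSO was at 0.00 (-0.09 to 0.10). With the number in the title as a block, limma gave Iapp an adjusted p of 0.184 for IAPP and 0.0863 for C4BP against DMSO. Neither passed.

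The likely reading of the titles gives wells with IAPP (titles IAPP and C4BP) and wells without (DMSO and C4BPD), and the mean difference between them, added after the data were seen, uses all 20 arrays. Without the number as a block it called 7.58% of all genes and none of the 7. Iapp was at -0.08 (95% interval -0.15 to -0.01, adjusted p = 0.155 by limma) and Pcsk2 at -0.05 (-0.10 to -0.01, adjusted p = 0.201). Ins2 was at -0.12 with a wider interval, from -0.26 to 0.03. The corresponding mean difference for C4BP (titles C4BPD and C4BP against the others) called 4.06% of all genes and none of the 7. The interaction, which asks whether the IAPP difference changes with C4BP, called 0.0495% of all genes and none of the 7, and each of the 7 had an adjusted p of at least 0.9996. Its interval was -0.15 to 0.12 on the log2 scale for Iapp and -0.23 to 0.34 for Ins2. With the number as a block, the mean IAPP difference passed for Iapp and Pcsk2 (adjusted p = 0.0171 and 0.0456 by limma). The share of all genes called in that blocked contrast is not given, and the 7.58% above is for the fit without the block. The block raised the count over all genes in each comparison between title groups, as in IAPP vs DMSO from 614 to 1133. Whether the Iapp and Pcsk2 calls exceed the background of the blocked fit therefore cannot be read. The rule for pairing by number, given with the processing, was met in C4BPD vs IAPP alone.

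Ratios between the hormone genes on the same array overlapped between the groups. Because different probe sets differ in brightness, only a change of such a ratio can be read, not its level. The log2 ratio of Ins2 to Ins1 was -0.34 ± 0.12 in DMSO, -0.44 ± 0.09 in IAPP, -0.39 ± 0.13 in C4BPD and -0.42 ± 0.03 in C4BP (SD, n = 5). For Iapp to Ins2 it was 1.33 ± 0.09 in DMSO, 1.40 ± 0.07 in IAPP, 1.36 ± 0.24 in C4BPD and 1.36 ± 0.05 in C4BP. For Iapp to Ins1 the means ran from 0.94 in C4BP to 0.99 in DMSO.

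Pcsk2, the convertase that cuts proinsulin mainly at the junction of C-peptide and A chain and also processes pro-IAPP, had the smallest spread of the 7 genes. Its intensities were 10251, 9896, 10256, 9769 and 10100 in DMSO and 10040, 9624, 10026, 9571 and 9839 in IAPP. For C4BPD the values were 10611, 10132, 10472, 10346 and 10569, and the C4BP arrays 10171, 9565, 10080, 9874 and 10028. Every C4BPD array lay above every IAPP array, a separation that 7.06% of all genes showed between these groups in one direction or the other. The means were 10426 ± 193 in C4BPD, 10055 ± 217 in DMSO, 9944 ± 238 in C4BP and 9820 ± 219 in IAPP (SD, n = 5 each). No neighbours in this order passed the test.

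C4BPD against IAPP gave the smallest adjusted p of the 42 differences, 0.125 by limma, for a Pcsk2 difference of 0.09 ± 0.03 (SE) on the log2 scale (95% interval 0.02 to 0.15), or 6.18%. In this comparison alone, arrays with the same number deviated together across genes in all 5 pairs (correlations 0.152 to 0.305), so a fit that blocks on the number is given too. There Pcsk2 passed, with an adjusted p of 0.0217 by limma, and C4BPD was higher in 5 of 5 pairs by 0.06 to 0.11. The blocked fit called 1908 of the 18166 genes in this comparison, and 1 of the 7 members. Of all genes, 12.0% were higher in 5 of 5 pairs. Iapp was also higher in 5 of 5 pairs but stayed at an adjusted p of 0.116 in the blocked limma fit, and its smallest pair difference was 0.01. Adjusted p-values for Pcsk2 over the unblocked alternatives in title groups ran from 0.0249, where the prior variance followed intensity, to 0.340, without the arrays numbered 4. Likely, this compares wells with C4BP alone and wells with IAPP alone, which differ in both agents. The other Pcsk2 difference with an unadjusted p under 0.05 was C4BP vs C4BPD, at -0.07 (95% interval -0.13 to -0.0036, unadjusted p = 0.0397 and adjusted p = 0.334 by limma). Against DMSO, Pcsk2 was at 0.05 in C4BPD (interval -0.01 to 0.12) and at -0.03 in IAPP (-0.10 to 0.03).

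**Figure D2:**
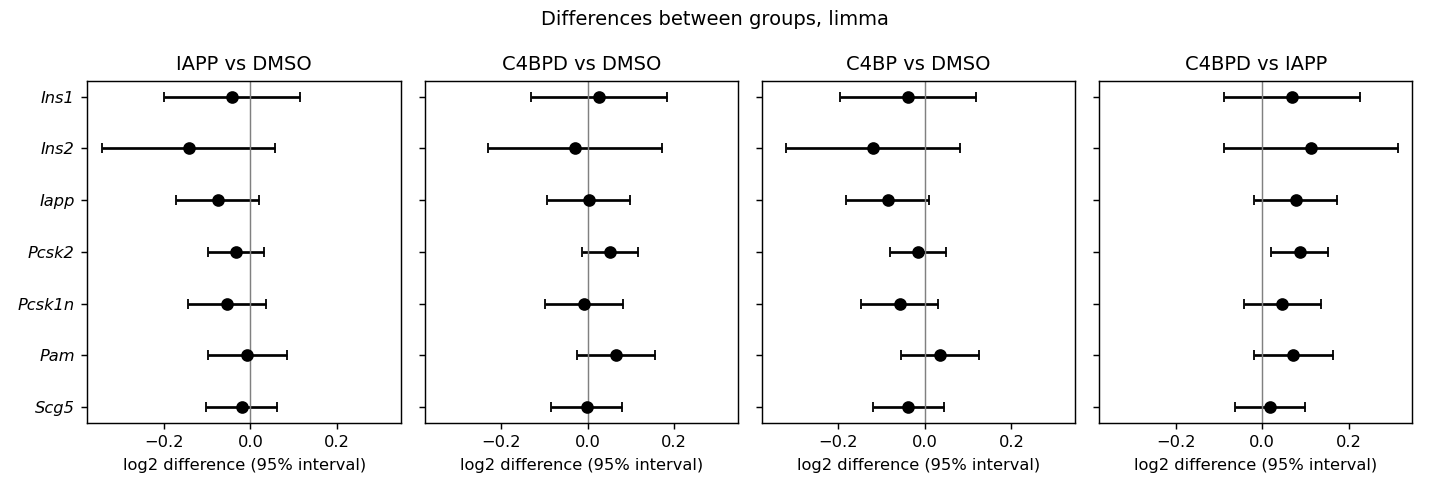
Log2 difference (horizontal axes) with its 95% interval from limma for each of the 7 genes in 4 comparisons of title groups, 5 arrays each. Every interval includes 0 except Pcsk2 in C4BPD vs IAPP (0.02 to 0.15), and the interval of Ins2 is the widest.

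Scg5, the chaperone of convertase 2, did not separate any groups. Its intensities were 9391, 9136, 9875, 9008 and 9298 in DMSO and 9788, 9011, 9441, 9137 and 8688 in IAPP. The C4BPD arrays read 9428, 9398, 9419, 9085 and 9284, and the C4BP arrays 9691, 8638, 9092, 9175 and 8893. The C4BPD arrays lay inside the range of each other group. The means were 9341 ± 333 in DMSO, 9323 ± 145 in C4BPD, 9213 ± 420 in IAPP and 9098 ± 391 in C4BP (SD, n = 5 each), with neighbours closer than their spread. Against DMSO, the intervals were -0.10 to 0.06 for IAPP, -0.08 to 0.08 for C4BPD and -0.12 to 0.04 for C4BP on the log2 scale.

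Pcsk1n, the source of the proSAAS inhibitor, had higher means in the 2 groups without IAPP on the likely reading. Its intensities were 6117, 6512, 6337, 6866 and 6909 in DMSO and 6127, 6241, 6387, 6116 and 6632 in IAPP. In C4BPD the readings were 6259, 6473, 6208, 6864 and 6744, and the C4BP arrays 6292, 6356, 6200, 5970 and 6601. The 4 highest arrays were numbers 4 and 5 of DMSO and of C4BPD, and the ranges of all groups overlapped. The means were 6548 ± 340 in DMSO, 6510 ± 290 in C4BPD, 6300 ± 215 in IAPP and 6284 ± 230 in C4BP (SD, n = 5 each). The mean IAPP difference over all 20 arrays was -0.05 (95% interval -0.12 to 0.01, adjusted p = 0.379 by limma).

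Pam, the amidating enzyme that acts on IAPP but not on insulin, had its highest mean in C4BPD. Its intensities were 7863, 7446, 7895, 7142 and 7268 in DMSO and 7926, 7306, 7772, 7177 and 7254 in IAPP. For C4BPD the values were 7761, 7897, 8383, 7750 and 7565, and the C4BP arrays 8149, 7568, 7953, 7335 and 7522. Number 3 of C4BPD was the highest array, and the groups overlapped. The means were 7871 ± 310 in C4BPD, 7705 ± 335 in C4BP, 7523 ± 343 in DMSO and 7487 ± 338 in IAPP (SD, n = 5 each), and no neighbours differed beyond their spread. C4BPD against DMSO was at 0.07 with an interval from -0.02 to 0.16 and an adjusted p of 0.603 in the limma fit.

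Set side by side, the differences were small and mostly of 1 sign within a comparison. In IAPP vs DMSO all 7 were negative (median -0.04, against 0.00 over all genes). In C4BP vs C4BPD all 7 were again negative (median -0.06, against 0.01). All 7 were positive in C4BPD vs IAPP (0.07 against -0.01), and 6 of 7 were negative in C4BP vs DMSO (-0.04 against 0.00). C4BPD vs DMSO had 4 positive and 3 negative (0.00 against -0.01), and C4BP vs IAPP likewise 4 and 3 (0.00 against 0.00). Comparisons share arrays, so these signs are not separate observations, and none of the differences passed.

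The number in the title went with more of the variation than the group did in 6 of the 7 genes. The number has 5 levels and the group 4. Number took 44.9% of the sum of squares in Ins1, 53.7% in Ins2, 52.5% in Iapp, 42.9% in Pcsk1n, 64.4% in Pam and 49.9% in Scg5. Group took 5.96% in Ins1, 14.2% in Ins2, 31.8% in Iapp, 19.0% in Pcsk1n, 21.4% in Pam and 9.75% in Scg5. Pcsk2 was the exception, with 56.9% by group, 37.6% by number and 5.53% left over. Over all genes the medians were 18.0% by group and 28.3% by number, and number took the larger share in 63.8% of genes.

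**Figure D3:**
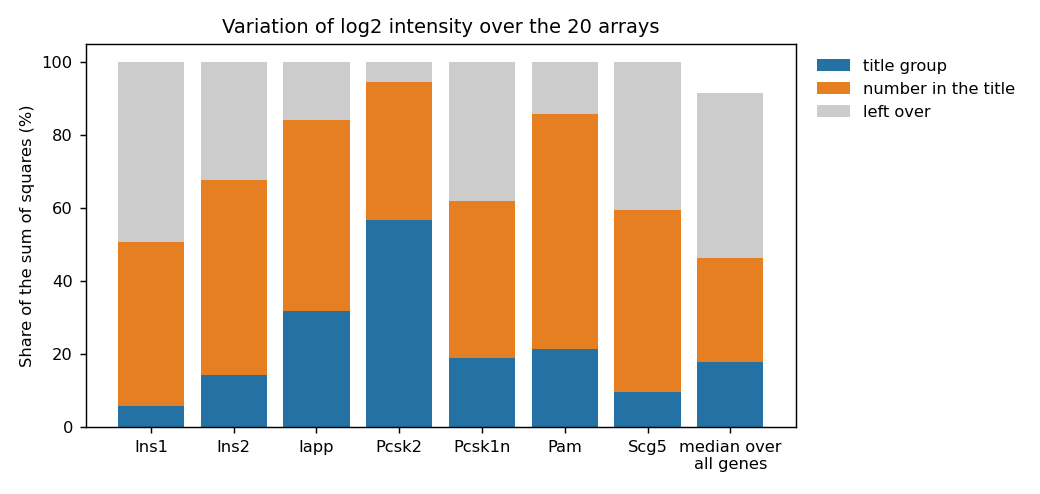
Share of the sum of squares of log2 intensity over the 20 arrays (vertical axis, percent) that goes with the title group, with the number in the title, or is left over. The last bar stacks the medians over all 18166 genes, taken separately, so that bar does not reach the height of the others, and Pcsk2 is the one member whose group share (56.9%) is above its number share (37.6%).

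Ins2, Iapp and Pam passed an F test for differences between the numbers, with the group kept in the model (adjusted p = 0.0385, 0.0295 and 0.0237 by limma). These 3 of 7 genes stand against 15.7% of all genes. Number 2 was low for Ins2, with 0 of 4 arrays above their group mean and a mean deviation of -0.16 on the log2 scale, and number 1 was high, with 4 of 4 above and 0.18. For Iapp, 4 of 4 arrays of number 1 (0.06) and of number 3 (0.07) lay above their group mean. Pam had 4 of 4 above in number 3 (0.07), and 0 of 4 in number 4 (-0.06) and in number 5 (-0.05). Ins1 did not pass (adjusted p = 0.160), and had 3 of 4 arrays of number 1 above their group mean, with a mean deviation of 0.15.

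These number calls were not stable. With all arrays numbered 1 left out, 68 genes were called in place of 2860, and Ins2 (adjusted p = 0.110), Iapp (0.185) and Pam (0.103) were no longer among them. All 3 were also lost without number 4 (0.0590, 0.0608 and 0.0785) or number 5 (0.0623, 0.0655 and 0.0734). Without number 2, Ins2 was lost (0.175), and without number 3, Iapp (0.109) and Pam (0.125) were. Over all genes, 2474, 2161, 2288 and 1855 were called without numbers 2, 3, 4 and 5. Centring arrays on their median left Ins2 alone (0.0393, with Iapp at 0.112 and Pam at 0.140), and quantile normalization left Pam alone (0.0192, with Ins2 at 0.0510 and Iapp at 0.139). These scalings called 2675 and 3049 of all genes. Leaving out single arrays removed Ins2 in 13 of 20 fits (any of DMSO 1 to 5, IAPP 2 to 5, C4BPD 2, 4 or 5, or C4BP 2; adjusted p up to 0.0837). Iapp was removed in 7 (DMSO 1, 3 or 5, IAPP 1 or 5, C4BP 1 or 3; up to 0.0676), and Pam in 4 (DMSO 1, IAPP 1, C4BPD 3, C4BP 1; up to 0.0565). Array medians were lowest in number 1, and their part in these differences was not tested.

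**Figure D4:**
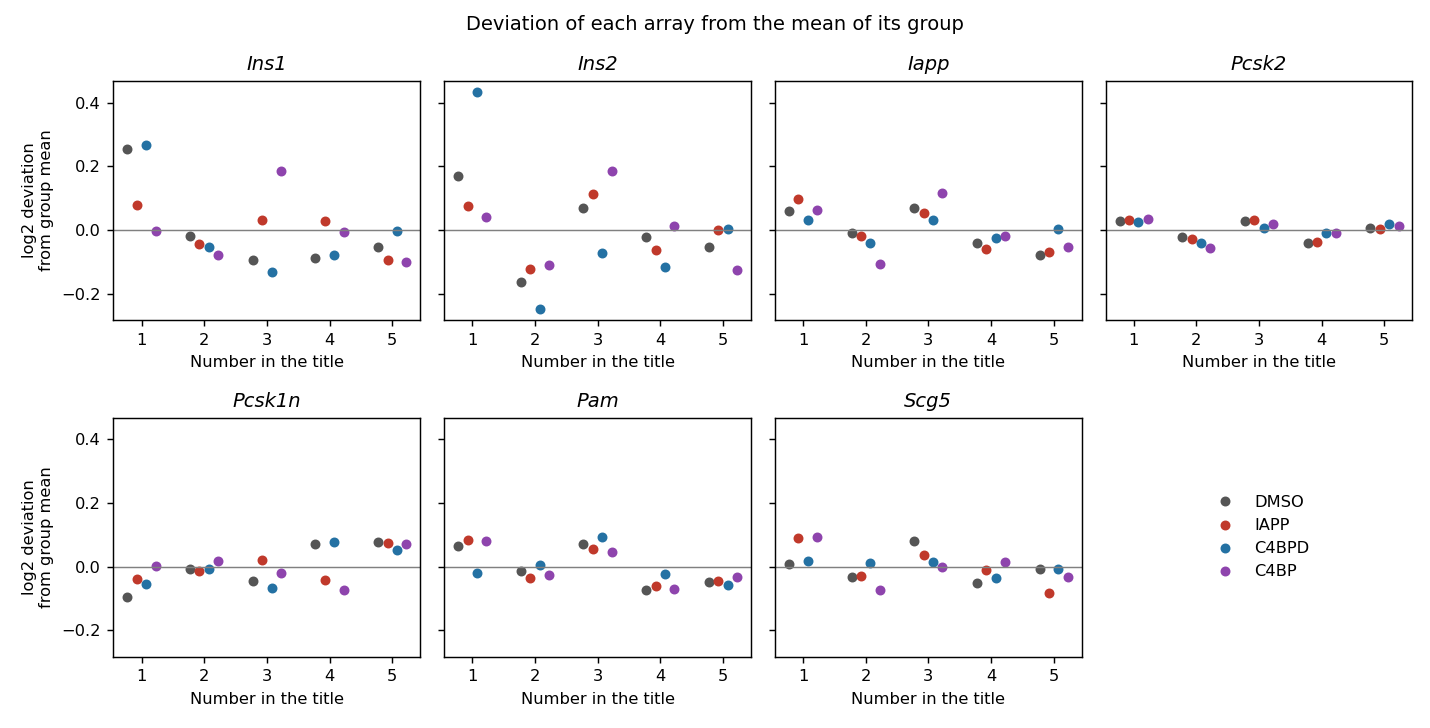
Deviation of each array from the mean of its title group on the log2 scale (vertical axes) against the number in the title (horizontal axes), with 1 point per array coloured by group. Number 1 of C4BPD is the highest and number 2 of C4BPD the lowest Ins2 point, Iapp lies above 0 on all arrays numbered 1 and 3, and Pcsk2 varies least.

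The genes whose log2 intensities followed the hormone genes most closely over the 20 arrays were found by Pearson's r among all genes, as a description. For Ins1 they were Mtcl2 (0.84), Rab11fip4 (0.84) and Atp2b2 (0.81). For Ins2 they were Pgam2 (0.87), Ehmt2 (0.84) and Hoxc9 (0.83), and for Iapp Fam135b (0.91), Ncoa7 (0.91) and Plcl2 (0.91). The points share the array number and array scaling, and 8 of these 9 genes passed the F test across the numbers, all but Pgam2 (adjusted p = 0.129 by limma).

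Other genes of the pathway were taken from 7 lists, written with earlier results of these data known. Of 27 measured genes of proinsulin folding and entry into the endoplasmic reticulum, 5 fell in IAPP, 4 in C4BPD and 7 in C4BP against DMSO, where 1.97%, 0.765% and 3.23% of all genes were lower, and none rose. How this list and the 7 genes above differ was not tested. The medians of the list were -0.05, -0.09 and -0.08, against 0.00, -0.01 and 0.00 over all genes. Sdf2l1, a component of chaperone complexes in that compartment, had intensities of 1473 ± 144 in DMSO, 1129 ± 94.1 in IAPP, 1118 ± 59.5 in C4BPD and 1007 ± 79.3 in C4BP (SD, n = 5). Its log2 differences from DMSO were -0.38, -0.39 and -0.55, each ± 0.07 (SE), with adjusted p-values of 0.0024, 0.0027 and 2.58e-05 by limma. These 3 calls held without any single array and any number, with adjusted p up to 0.04997 in IAPP, 0.0211 in C4BPD and 0.000809 in C4BP. DMSO is shared by all 3 comparisons.

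Among 15 measured transcription factors of the insulin genes, 2 fell in IAPP, none in C4BPD and 3 in C4BP against DMSO (1.97%, 0.765% and 3.23% of all genes were lower), and none rose. Myt1, a zinc-finger factor of endocrine cells, was at 1160 ± 38.3 in C4BP and 1361 ± 58.8 in DMSO (SD, n = 5; log2 difference -0.23, adjusted p = 0.0011 by limma). Isl1, a homeodomain factor that binds the insulin promoter, was at 3111 ± 196 in IAPP and 3522 ± 204 in DMSO (-0.18, adjusted p = 0.0366). The Isl1 call was lost in 6 of 20 fits without 1 array (DMSO 2, 3 or 5, or IAPP 1, 2 or 4), in 4 of 5 without a number (adjusted p up to 0.246), and in a fit of both groups alone or of all probe sets (up to 0.131).

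Of 17 measured granins and granule cargo genes, 1 fell in IAPP and none passed in C4BPD, while in C4BP 2 fell and 1 rose against DMSO. Of all genes, 1.97% were lower in IAPP, and 3.23% lower and 2.72% higher in C4BP. The gene that fell in IAPP was Sytl4, granuphilin, which docks insulin granules at the plasma membrane and is itself neither a granin nor cargo. Sytl4 was at 2910 ± 302 in DMSO, 2228 ± 219 in IAPP and 2144 ± 216 in C4BP (SD, n = 5). The log2 differences were -0.38 (adjusted p = 0.0079 by limma) and -0.44 (0.0014), and the first was lost in 1 of 5 fits without a number (0.0740). Of 9 other convertases and carboxypeptidases measured, 1 rose in C4BPD, where 1.17% of all genes were higher, and none passed in IAPP or C4BP. That gene was Cpm, a membrane carboxypeptidase, at 361 ± 31.2 in C4BPD and 261 ± 11.4 in DMSO (SD, n = 5; log2 difference 0.46, adjusted p = 4.14e-05 by limma, and at most 0.0024 with any array or number left out).

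Of 14 measured genes of amidation cofactors and peptide modification, 1 fell in IAPP and 1 in C4BP against DMSO, in both cases Qpctl, a glutaminyl cyclase of the Golgi, beside 1.97% and 3.23% of all genes. It was at 1479 ± 49.1 in DMSO, 1302 ± 82.1 in IAPP and 1297 ± 44.3 in C4BP (SD, n = 5). The log2 difference was -0.19 in both, with adjusted p-values of 0.0157 and 0.0082 by limma. The first was lost without IAPP array 2 or 4, in 3 of 5 fits without a number (up to 0.0999) and in a fit of both groups alone (0.0770), and the second in 1 of 5 without a number (0.0774).

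Of 18 measured genes of granule acidification and zinc, 1 rose in IAPP and none passed in C4BPD, while in C4BP 2 rose and 2 fell. Of all genes, 1.41% were higher in IAPP, and 2.72% higher and 3.23% lower in C4BP. Slc30a8, the zinc transporter of insulin granules, was at 5742 ± 201 in C4BP and 6439 ± 193 in DMSO (SD, n = 5; log2 difference -0.17, adjusted p = 0.0112 by limma). That call was lost in 3 of 5 fits without a number (up to 0.0861) and in a fit of both groups alone (0.0515). Atp6v0a1, a subunit of the proton pump, was at 4428 ± 53.0 in IAPP and 4074 ± 90.8 in DMSO (0.12, adjusted p = 0.0226). It was lost without any of IAPP 2, 3 or 5 or DMSO 2, 3 or 4, in 4 of 5 fits without a number (up to 0.166) and in a fit of both groups alone (0.0982). None of 9 measured genes of insulin mRNA binding and stability passed in any of the 6 comparisons.

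**Figure D5:**
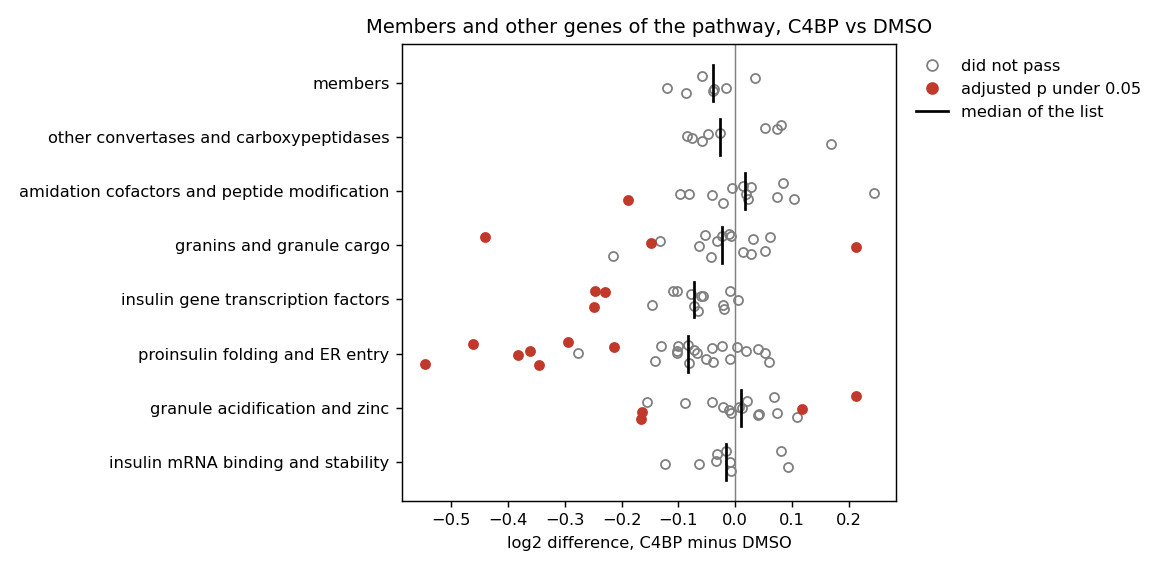
Log2 difference of C4BP minus DMSO (horizontal axis) for the 7 hormone and processing genes (row named members) and for 7 lists of other pathway genes, with 1 point per gene, filled where the adjusted p was under 0.05, and a line at the median of each list. The folding list has 7 filled points, all to the left of 0, and the members' row has none.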

How the data were processed

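The deposited values are linear intensities (4.73 to 18573.7), 1 per probe set, that the authors had normalized. The submitters' processing notes list Affymetrix Expression Console. Its version and the algorithm used are not given in the sources that were read. Of 36685 probe sets, 190 are controls. They were left out of the correlations between arrays and of the median log2 intensity set beside the markers, and are part of the counts that follow. In the platform annotation 18511 probe sets have exactly 1 symbol, 575 have several, and 17599 have none. The brightest probe set per symbol gave 18166 genes, 291 of which had more than 1. The 7 members were the probe sets 17626410 (Ins1), 17638641 (Ins2), 17788035 (Iapp), 17766779 (Pcsk2), 17876177 (Pcsk1n), 17861938 (Pam) and 17775486 (Scg5).

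Intensities were taken to log2 with no further scaling or filter. A model of 4 group means over the 20 arrays was fitted by lmFit and eBayes of limma 3.58.1 (R 4.3.3), leaving 16 degrees of freedom for the residual, with two-sided tests, Benjamini-Hochberg adjustment over all genes and a threshold of 0.05. The script was tested on simulated data. The number of arrays limits the precision, and no detection values were used.

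Replicate numbers in the titles were taken to pair arrays where the deviations of all 5 pairs correlated above 0.1. This held in C4BPD vs IAPP and in none of the other 5 comparisons. In C4BP vs IAPP, 4 of 5 pairs were above 0.1, with correlations from -0.009 to 0.510. Alternatives were scaling, array weights, a filter on dim genes, probe set choice, the prior variance, the number as a block, the treatment field, the compared groups alone and left-out arrays.

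The members and lists were chosen with earlier results of these data known. The rule names all members, up to 4 passing genes per list and comparison, and the 3 closest genes by correlation. The text gives the first of each list against DMSO. Motifs and identities were computed with Biopython 1.88 in Python 3.11.15, and figures drawn with matplotlib 3.10.9.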

Additional observations from a re-analysis of the deposited data

Results flagged for a closer look

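Among the 28 groups of 5 arrays (7 genes in 4 title groups), 2 held an array far from the others by Dixon's test at the 95% level, which flags about 1 group in 20 by chance. Ins1 in DMSO array 1 was at 7092.25, while the other 4 arrays ran from 5577.25 to 5877.55, so the gap took 0.802 of the group's range. Ins1 in C4BPD array 1 was at 7290.44, with the others from 5534.31 to 6040.83 and a gap of 0.712 of the range. Both carry number 1. The other arrays of that number, IAPP (6103) and C4BP (5789), did not stand apart for Ins1.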

How the results depend on the processing

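Over 1470 alternative values of the 42 differences of the members, 2 passed the threshold, both Pcsk2 in C4BPD vs IAPP. The count of members called there was 1 with an intensity trend of the prior variance (adjusted p = 0.0249) and 1 with the replicate block (0.0217), against 0 otherwise. Over all 18166 genes the block called 1908 in that comparison, against 992 in the main fit. The share of all genes in the trend fit is not given here. The replicate block gave 2 called members in the mean IAPP difference, Iapp (-0.08, adjusted p = 0.0171 by limma) and Pcsk2 (-0.05, 0.0456). The share of all genes called in that blocked contrast is not given here. The rule for pairing by number was met in C4BPD vs IAPP alone. Missing that cut-off does not show that the numbers fail to pair the arrays of other groups. The block changed no other count between groups, and why these counts changed was not tested. The count across the numbers was 1 with arrays centred on their median, 1 with quantile normalization, and 0 to 3 with an array or number left out, where fewer samples enter the fit. All other counts of members stayed at 0, with arrays or numbers left out as well.

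Signs changed in 93 of the 1470 values, none of them past the threshold, 30 of them where the treatment field gave the group and 53 with arrays or numbers left out. The treatment field ended every call named against DMSO, and 13 of 15 changed sign, to -0.0637 for Cpm in C4BPD vs DMSO, 0.0380 for Qpctl in IAPP vs DMSO, 0.0195 for Qpctl in C4BP vs DMSO, 0.0900 for Sytl4 in IAPP vs DMSO, 0.00560 for Sytl4 in C4BP vs DMSO, 0.10 for Myt1 in C4BP vs DMSO, 0.0652 for Sdf2l1 in IAPP vs DMSO, 0.000773 for Sdf2l1 in C4BPD vs DMSO, 0.14 for Sdf2l1 in C4BP vs DMSO, -0.00386 for Atp6v0a1 in IAPP vs DMSO, 0.0302 for Slc30a8 in C4BP vs DMSO, 0.0145 for Gcg in IAPP vs DMSO and 0.0228 for Slc2a2 in C4BP vs DMSO on the log2 scale (cause not tested). That field repeats a fixed order of the conditions down the sample list, as given above. Intervals of the members reached 0.20 to either side for Ins2 and 0.06 for Pcsk2, which is the precision of 5 arrays per group before any adjustment.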
